A study of Homo sapiens with 4 samples.

Results

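Contacts of the HIC1 gene and of the neighbouring microRNA genes MIR132 and MIR212 were examined from both sides of the narrow interval that separates them. Members were set by position, as the 10-kb windows of the deposited contact matrices that hold these genes, with earlier results of these data known. The choice gave 2 viewpoint windows of the 148 non-overlapping windows measured in all 4 libraries. The MIR132/MIR212 window spans chr17:2043501-2053500 (hg38) and the HIC1 window spans chr17:2053501-2063500. High-throughput chromosome conformation capture (Hi-C) had been performed on wild-type cells of H9, a long-established line of human embryonic origin. The groups were untreated human embryonic stem cells (hESCs; ESC in the plots, 2 libraries) and neuroectodermal cells obtained from them by neuroectodermal differentiation with the BMP inhibitor Noggin and the TGF-beta receptor inhibitor SB431542 (ECTO in the plots, 2 libraries). The series was made to find target genes of the enhancer HAR123, and here the HAR123 window was treated as 1 of 145 partners of each viewpoint.

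Hi-C joins by ligation the DNA ends that lie close together in the nucleus, so that the number of read pairs linking a pair of windows reflects how often they meet. Chromosomes are folded into contact domains, within which sequences meet often, and the borders between domains are places across which few contacts form. HIC1 encodes a zinc-finger transcriptional repressor that is silenced by DNA methylation in many tumours. MIR132 and MIR212 are processed from a shared transcript, and their products are best known in neurons, where their production follows neuronal activity. A bulk library averages many cells, so a contact formed in few cells and a weak contact formed in many cannot be told apart.

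In GENCODE 44, MIR132 (ENSG00000267200.1; 2049908 to 2050008) and MIR212 (ENSG00000267195.1; 2050271 to 2050380) are on the minus strand, outside the bounds of any annotated protein-coding gene. Their window also holds the end of DPH1, a diphthamide synthesis gene. HIC1 (ENSG00000177374.13; 2054154 to 2063241) is on the plus strand, and both of its exons (transcript ENST00000619757.5) lie in the HIC1 window. That window also holds exon 19, the last exon, of SMG6 (ENSG00000070366.14; 2059839 to 2303785, minus strand), which encodes an endonuclease of nonsense-mediated RNA decay. Contacts of HIC1 and of the SMG6 end therefore could not be separated.

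The mature microRNAs that identify the first viewpoint are shown in the RefSeq sequences, with the seed (bases 2 to 8, which pair with target mRNAs) in capitals. All 4 match the minus strand of hg38, at chr17:2049929-2049950 (miR-132-3p), chr17:2049965-2049986 (miR-132-5p), chr17:2050290-2050310 (miR-212-3p) and chr17:2050328-2050350 (miR-212-5p).
hsa-miR-132-3p: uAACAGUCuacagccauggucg
hsa-miR-212-3p: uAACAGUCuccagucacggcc
hsa-miR-132-5p: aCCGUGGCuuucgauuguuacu
hsa-miR-212-5p: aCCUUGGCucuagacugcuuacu
The 3p products share their seed and carry the same base at 17 of the 21 positions compared from the 5′ end, whereas the 5p seeds differ. Because both hairpins lie in the same 10-kb window, their contacts are a single measurement.

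The viewpoint windows were covered unequally. The MIR132/MIR212 window held 645 and 565 read pairs in hESC replicates 1 and 2 and 369 and 386 in neuroectodermal replicates 1 and 2, close to the median window (657, 660.5, 373.5 and 386). The HIC1 window held 497 and 500 read pairs in hESCs and 268 and 277 in neuroectodermal cells, and ranked 31, 31, 12 and 16 from the lowest of the 148 windows. Its GC content was the highest of all windows (65.3%, median 49.4%), and it held the fewest GATC sites (13, median 33). GATC, a palindrome that reads the same on both strands, was counted because it is the recognition sequence of enzymes widely used in Hi-C. The MIR132/MIR212 window had 56.4% GC and 21 GATC sites. The core consensus motif of CTCF, a protein found at many domain borders, was absent from both windows on either strand, and 4.73% of all windows held it. The part of base composition and site number in the contacts below was not tested, although the expectation used takes in the total coverage of each window.

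Each contact was expressed as observed over expected read pairs, where the expectation for a pair of windows came from the library's own mean deposited value for that distance, so that 1 means average contact for that distance. The 4 libraries held 57025, 57554, 35199 and 35484 read pairs in these windows. Replicates were compared over the pairs of 10-kb windows with at least 10 read pairs in the replicates together. There were 1776 such pairs in hESCs and 871 in neuroectodermal cells. Replicates agreed within sampling noise there (chi-square per degree of freedom 0.99, p = 0.557, in hESCs and 0.961, p = 0.790, in neuroectodermal cells). The sources used here do not say that replicates were separate cultures, so spreads and p-values may cover technical variation only. In the matrix headers, hESC and neuroectodermal files of equal replicate number carry an identical directory name, and the assignment to cell types rests on the labels.

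Within 200 kb the viewpoints differed in the side on which their contacts lay. The HIC1 window turned toward higher coordinates, the side of the SMG6 body, while the MIR132/MIR212 window was close to balanced with a small excess toward lower coordinates, the side of RTN4RL1 (a Nogo receptor family gene) and RPA1 (a subunit of the single-strand DNA binding complex RPA). Side balance was measured as the log2 of the summed deposited contact on the lower over the higher side, over the 19 distances from 20 to 200 kb. At the HIC1 window hESC replicates 1 and 2 gave -1.0 and -0.82, and neuroectodermal replicates 1 and 2 gave -1.09 and -1.17. At the MIR132/MIR212 window it was 0.23 and 0.45 in hESCs and 0.17 and 0.29 in neuroectodermal cells. All 4 libraries lay below 0 at HIC1 and above 0 at the microRNA genes, although the windows adjoin. The lean of the MIR132/MIR212 window was not stable, since its mean became -0.02 in hESCs with an expectation from distance alone and -0.14 in neuroectodermal cells at 20 to 100 kb, while HIC1 stayed below 0 in both.

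In read pairs, the HIC1 window had 87 on the lower and 190 on the higher side in hESC replicate 1, and 88 and 177 in hESC replicate 2. It had 39 and 83 in neuroectodermal replicate 1, and 37 and 86 in neuroectodermal replicate 2. The lower side thus took 31.4% (exact 95% binomial interval 26.0% to 37.2%), 33.2% (27.6% to 39.2%), 32.0% (23.8% to 41%) and 30.1% (22.1% to 39.0%) of these pairs, and no interval reached an even split. On the lower and higher sides, MIR132/MIR212 had 171 and 150, 165 and 123, 85 and 76, and 86 and 71 read pairs, in the same order of libraries. Its lower share ran from 52.8% to 57.3%, and only the interval of hESC replicate 2 (51.4% to 63.1%) lay wholly above an even split. These intervals, like those that follow, cover counting error only and not variation between libraries or cultures. They treat read pairs as independent counts, and the reads carry no molecular identifiers.

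The difference between the viewpoints, HIC1 minus MIR132/MIR212 within each library, was -1.23 and -1.26 in hESCs and -1.26 and -1.45 in neuroectodermal cells, with a mean of -1.30 ± 0.10 (SD, n = 4). An exact sign permutation test over the 4 libraries gave a two-sided p of 0.125, the smallest this design allows. The difference was more than 10 times the SD between libraries, which is a description and not a test. That SD may cover technical variation only. It was -1.05 ± 0.18 at 20 to 100 kb and -1.55 ± 0.20 at 110 to 200 kb (SD, n = 4 each), with all 4 libraries below 0 in both ranges. At 210 to 290 kb it was -0.50 ± 0.70 (SD, n = 4), with 3 of 4 libraries below 0 (exact sign permutation p = 0.25). Among the 84 windows with every distance from 20 to 200 kb measured on both sides, the HIC1 window had the 4th lowest balance averaged over libraries. The MIR132/MIR212 window had the 30th highest (median of all windows 0.03). The rank of HIC1 was less extreme at 110 to 200 kb, 23rd lowest of 84 windows (median 0.37). At 20 to 100 kb it was 7th lowest of 104 windows (median -0.01). Between cell types, the balance at HIC1 was -0.91 ± 0.13 in hESCs and -1.13 ± 0.06 in neuroectodermal cells (SD, n = 2; exact permutation p = 0.333, the smallest possible for 2 against 2 libraries). At MIR132/MIR212 it was 0.34 ± 0.15 and 0.23 ± 0.08 (SD, n = 2; exact permutation p = 0.667).

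The turn of direction was followed in 1-kb steps, with a 10-kb viewpoint moved across the interval. Centred 20 kb below the MIR132/MIR212 window, at the start of DPH1 and RTN4RL1, the balance was 1.53 and 1.51 in hESCs and 1.65 and 2.17 in neuroectodermal cells. Centred 20 kb above the HIC1 window, in SMG6, it was -1.69 and -1.63 in hESCs and -1.83 and -1.59 in neuroectodermal cells. At 20 to 200 kb, the sign changed once in every library. The first position below 0 had its centre 3.65 kb (hESC replicate 1), 1.65 kb (hESC replicate 2), 3.65 kb (neuroectodermal replicate 1) and 4.65 kb (neuroectodermal replicate 2) before the HIC1 start. At this range the switch thus lay between the MIR132/MIR212 and HIC1 window centres in all 4 libraries. At 20 to 100 kb, both neuroectodermal libraries were already below 0 at the MIR132/MIR212 window (-0.15 and -0.14). At 110 to 200 kb, the sign changed more than once in hESC replicate 1 and in neuroectodermal replicate 2. Neighbouring positions share 9 kb of their window, so they are not independent, and the 10-kb width limits how finely the place can be set.

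**Figure D1:**
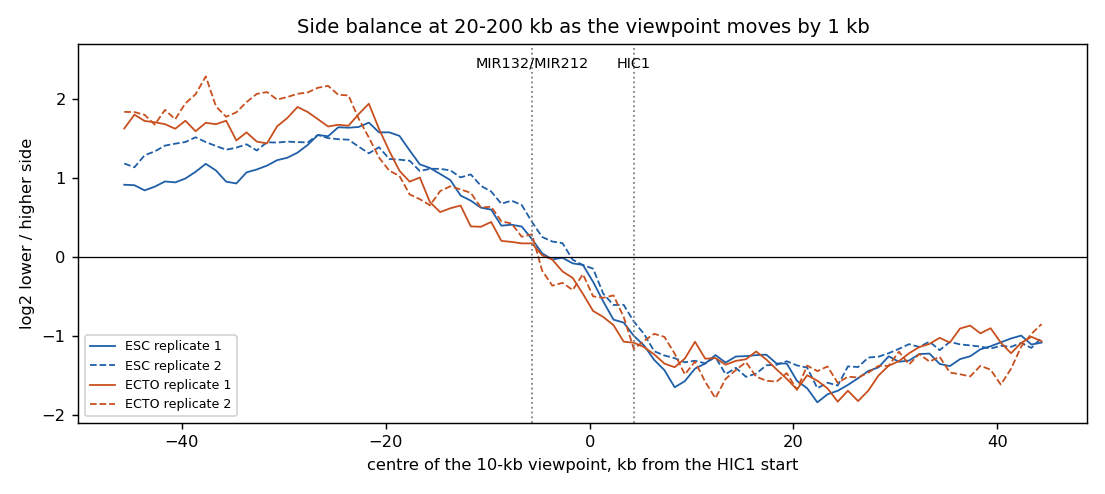
Side balance (log2 of contact on the lower over the higher coordinate side, 20 to 200 kb) of a 10-kb viewpoint moved in 1-kb steps, against the distance of its centre from the HIC1 start in kb; each line is 1 library (ESC blue, ECTO orange, replicate 2 dashed) and dotted lines mark the viewpoint windows. At the left end the lines stand between 0.92 and 1.84, at the right end between -1.08 and -0.85, and each crosses 0 once, between 5.65 and 1.65 kb before the HIC1 start.

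Contact was next split by distance. From 20 to 100 kb, both windows had fewer read pairs than expected on both sides in all 4 libraries. The deepest loss was on the lower side of HIC1, with 0.53 and 0.45 of the expectation in hESCs and 0.39 and 0.33 in neuroectodermal cells. That was the second lowest mean of the 141 windows ranked for this side and distance. MIR132/MIR212 had 0.75 and 0.82 in hESCs and 0.67 and 0.60 in neuroectodermal cells on the lower side, and 0.54, 0.58, 0.75 and 0.65 on the higher side. On the higher side HIC1 had 0.85, 0.73, 0.75 and 0.82, the mildest of these losses in the mean over libraries (25th lowest of 141 windows). This loss depended on the placement of the windows. Moved by 9 kb, they gave 1.14 in hESCs and 1.06 in neuroectodermal cells.

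Beyond 100 kb, contact stood above the expectation on some sides and distances. At 110 to 200 kb, the HIC1 window had 2.37 (exact Poisson 95% interval 1.94 to 2.85) and 2.25 (1.84 to 2.72) in hESCs and 2.20 (1.62 to 2.91) and 1.82 (1.33 to 2.44) in neuroectodermal cells on the higher side. This was the 4th highest mean of 113 windows ranked. On the lower side it had 1.02, 1.22, 1.04 and 0.94, and every interval there held 1. The MIR132/MIR212 window had 1.55, 1.63, 1.66 and 1.72 on the lower side at this distance, and all 4 intervals lay above 1 (16th of 113 windows). On the higher side it had 1.41 in hESC replicate 1, whose interval (1.12 to 1.74) lay above 1, and 1.09, 1.08 and 1.02 in the other libraries. At 210 to 290 kb both viewpoints had raised contact on the higher side, 2.05 and 2.15 in hESCs and 1.62 and 1.64 in neuroectodermal cells for MIR132/MIR212, and 2.09, 1.82, 1.5 and 1.37 for HIC1. On the lower side at this distance HIC1 had 0.41 and 0.65 in hESCs and 1.02 and 0.98 in neuroectodermal cells, and only the interval of hESC replicate 1 (0.18 to 0.80) lay wholly below 1. The ranks place the viewpoints among windows of the same libraries and carry no test.

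**Figure D2:**
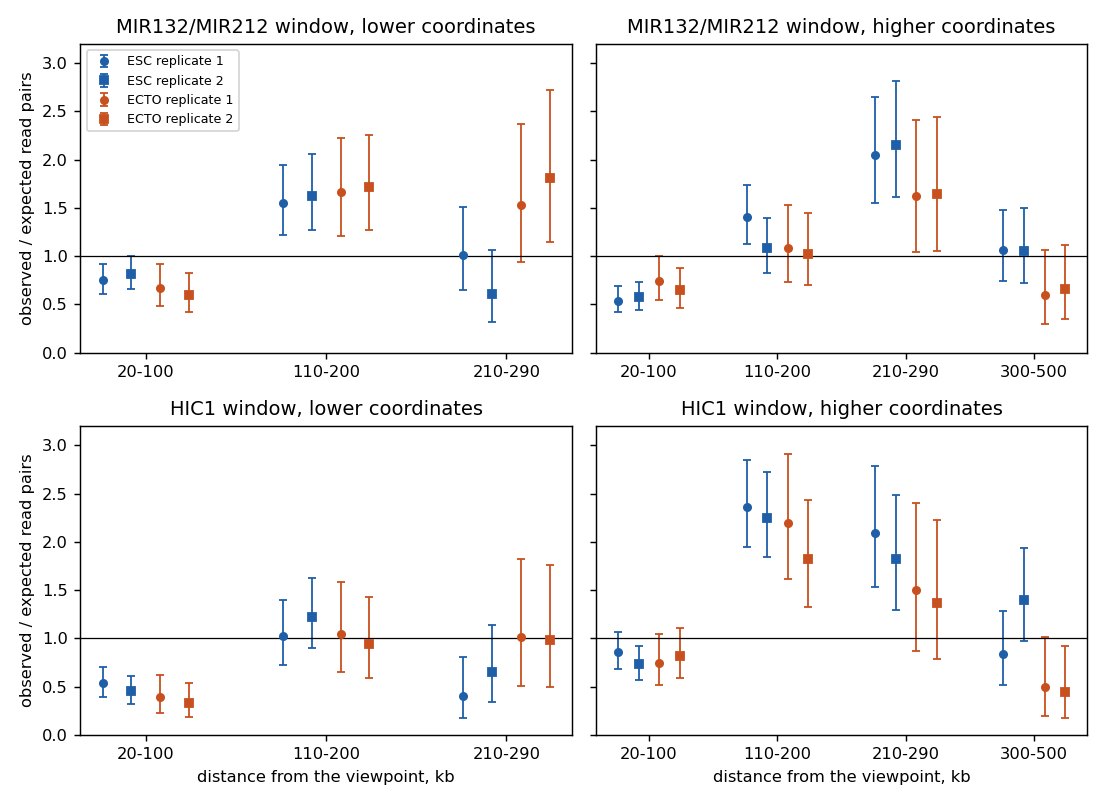
Observed over expected read pairs (y axis) of the 2 viewpoints by distance band in kb (x axis) and side; points are the 4 libraries (ESC blue, ECTO orange; circles replicate 1, squares replicate 2) and bars are exact Poisson 95% intervals, with a line at 1. All libraries lie below 1 at 20-100 kb, and the HIC1 window reaches 1.82 to 2.37 at 110-200 kb on the higher side against 0.94 to 1.22 on the lower side.

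The partners behind these sums were then examined 1 by 1. A partner was called for a cell type when the exact one-sided Poisson test on its read pairs, with Benjamini-Hochberg adjustment over the 10733 window pairs at least 20 kb apart, gave an adjusted p under 0.05 in both replicates. In hESCs this called 1 of 145 partners of the MIR132/MIR212 window (0.690%) and 0 of 145 of the HIC1 window, against 0.13% of all window pairs. In neuroectodermal cells it called 0 partners of either viewpoint and 0% of all pairs. At an unadjusted p under 0.05 in both replicates, 5 partners of each viewpoint passed in hESCs (3.45%, against 1.65% of all window pairs), and 3 of MIR132/MIR212 (2.07%) and 2 of HIC1 (1.38%) in neuroectodermal cells (0.634% of all). A window pair of this kind averaged 2.91 and 2.93 read pairs in hESCs and 1.42 and 1.47 in neuroectodermal cells, so few single pairs could pass at this depth.

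The called partner of the microRNA genes was chr17:1903501-1913500, 140 kb toward lower coordinates, in the gap between the ends of RPA1 (1900082) and RTN4RL1 (1934677), where no protein-coding gene is annotated. It held 20 and 25 read pairs in hESCs, where 6.54 and 6.26 were expected, and 8 and 8 in neuroectodermal cells, where 3.26 and 3.31 were expected. Observed over expected was 3.06 and 4.00 in hESCs (exact one-sided Poisson test, adjusted p = 0.00834 and 2.36e-05) and 2.45 and 2.42 in neuroectodermal cells (adjusted p = 0.955 and 1). It had the highest mean over the 4 libraries of the 145 partners. With all windows moved by 9 kb, the hESC mean fell from 3.53 to 1.69, and moved by 8 kb, the neuroectodermal mean fell from 2.43 to 1.30. The HIC1 window, 150 kb away, held 10, 12, 7 and 3 read pairs with it, at 1.99, 2.35, 2.71 and 1.20 times the expectation. In neuroectodermal cells the highest partner of the microRNA genes within 200 kb was instead chr17:1883501-1893500, in the last part of RPA1, with 10 and 9 read pairs (3.00 and 3.17 times the expectation) against 7 and 6 in hESCs (1.37 and 1.19). By limma the change was 1.25 (SE 0.35) on the log2(value + 1) scale, with an adjusted p of 0.798. That window was named after its values were seen.

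The highest partner of HIC1 over the 4 libraries was the HAR123 window, chr17:2233501-2243500, which lies 180 kb toward higher coordinates and holds exon 10 of SMG6 with parts of introns 9 and 10. It held 15 and 10 read pairs in hESCs and 10 and 9 in neuroectodermal cells, at 4.86, 3.73, 6.79 and 5.26 times the expectation. The hESC mean of 4.30 became 2.85 with an expectation from distance alone, and the neuroectodermal mean of 6.02 became 2.90 with the windows moved by 9 kb. With adjustment over all window pairs the exact one-sided Poisson test gave adjusted p-values of 0.000924 and 0.0683 in hESCs and 0.0136 and 0.0813 in neuroectodermal cells. Replicate 1 of each cell type passed the threshold and replicate 2 did not, so the pair was not called in either. The MIR132/MIR212 window held 7, 10, 2 and 2 read pairs with the HAR123 window, at 1.82, 3.02, 0.92 and 0.99 times the expectation, the 23rd highest mean among its partners. At the HAR123 window the neuroectodermal mean was 6.02 against 4.30 in hESCs for HIC1, and 0.96 against 2.42 for MIR132/MIR212. The neuroectodermal values of MIR132/MIR212 each rest on 2 read pairs. No difference between the cell types was called at this window for either viewpoint. By limma the changes were 0.46 (SE 0.29) and -1.14 (SE 0.47) on the log2(value + 1) scale, with adjusted p-values of 0.802 and 0.798.

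**Figure D3:**
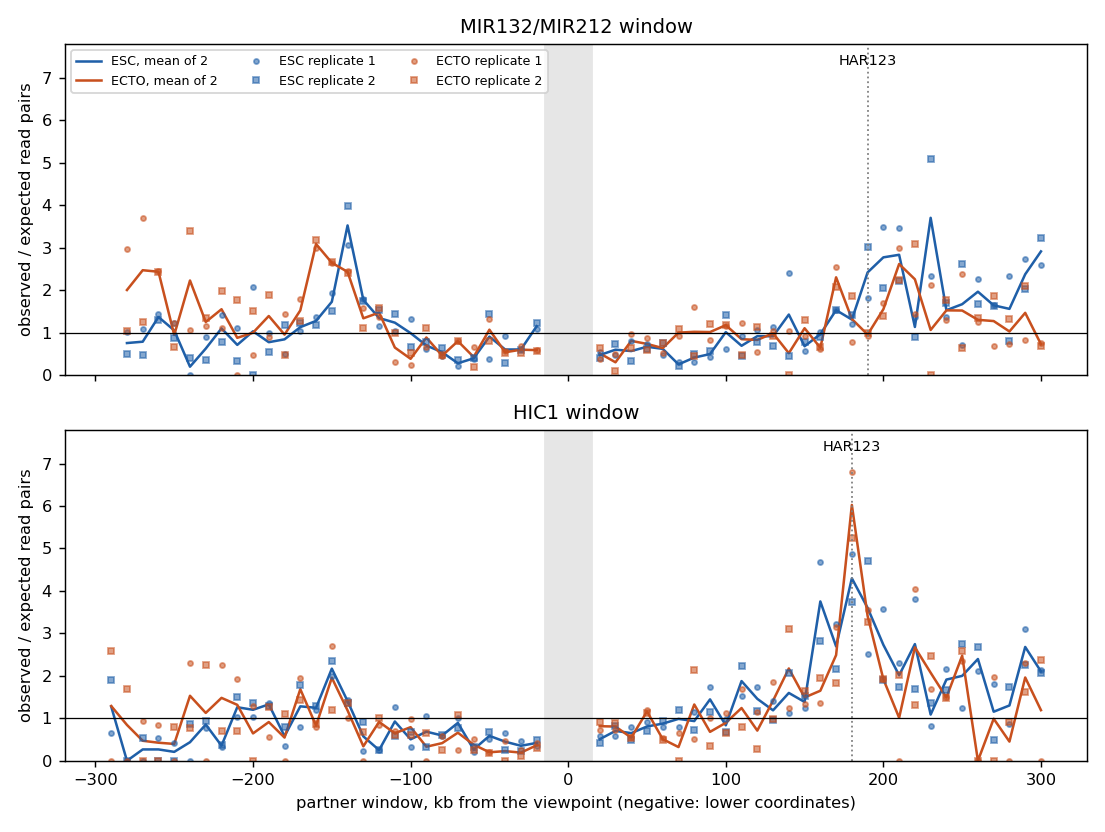
Observed over expected read pairs (y axis) of the MIR132/MIR212 window (top) and the HIC1 window (bottom) with each partner window up to 300 kb away (x axis, kb from the viewpoint, lower coordinates negative); lines are means of 2 libraries, points single libraries (ESC blue, ECTO orange), and the grey bar marks the windows nearer than 20 kb. The HIC1 profile peaks at the HAR123 window, 180 kb away (3.73 to 6.79 over the 4 libraries). Averaged over the 4 libraries, the MIR132/MIR212 profile is highest 140 kb toward lower coordinates (3.06 and 4.00 in ESC). In ESC alone, its mean is higher still at 230 kb toward higher coordinates (2.32 and 5.09).

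Summing the replicates of a cell type, an alternative rule that gives up the check between replicates, brought out a run of partners in SMG6. In hESCs it called 7 of 145 partners of HIC1 (4.83%) and 5 of 145 of the MIR132/MIR212 window (3.45%), against 1.74% of all window pairs. In neuroectodermal cells it called 1 of 145 partners of each viewpoint (0.690%), against 0.298% of all pairs. Of the 7 partners of HIC1, 5 adjoined each other from 2213501 to 2263500, which runs over introns 8 to 10 of SMG6 and includes the HAR123 window in its middle. The others were chr17:2273501-2283500, with exon 8 of SMG6, and the gap window next to RPA1 described above. The single neuroectodermal partner of HIC1 was the HAR123 window (19 read pairs, 5.97 times the expectation; exact Poisson test on the sum, adjusted p = 1.6e-05). That of MIR132/MIR212 was chr17:1883501-1893500 (19 read pairs, 3.08 times; adjusted p = 0.0143).

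Within the run the hESC replicates did not have their most read pairs at the same window. The window chr17:2213501-2223500 held 22 and 14 read pairs with HIC1 in hESCs (4.68 and 2.83 times the expectation) and 3 and 4 in neuroectodermal cells (1.36 and 1.94). The window chr17:2243501-2253500 held 10 and 21 in hESCs (2.51 and 4.69 times) and 7 and 6 in neuroectodermal cells (3.55 and 3.27). The raised contact of HIC1 in hESCs was thus spread over several adjoining windows around HAR123. By limma the change from hESCs to neuroectodermal cells was -1.01 (SE 0.37) for the first of these windows, 0.46 (SE 0.29) for the HAR123 window and -0.0012 (SE 0.40) for the other, on the log2(value + 1) scale, with adjusted p-values of 0.798, 0.802 and 1.00. The MIR132/MIR212 window had its hESC calls at chr17:2243501-2253500 (17 and 10 read pairs), chr17:2253501-2263500 (12 and 7), chr17:2273501-2283500 (9 and 17) and chr17:2343501-2353500, in SGSM2, a modulator of small G proteins, besides the gap window. Of these, 3 were also called for HIC1 on the higher side.

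**Figure D4:**
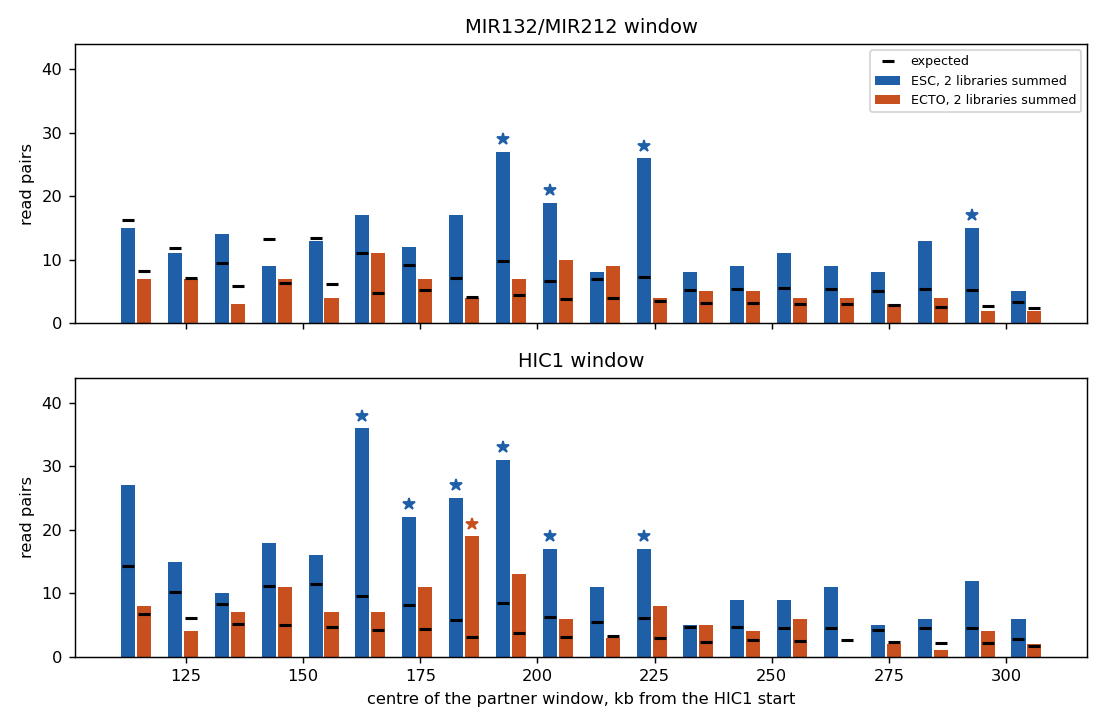
Read pairs of the MIR132/MIR212 window (top) and the HIC1 window (bottom) with partner windows on the higher side (x axis, kb of the partner's centre from the HIC1 start), with 2 libraries summed per cell type (ESC blue, ECTO orange); black dashes are the expectation and stars mark an adjusted p under 0.05 by the exact Poisson test on the sum. For HIC1 in ESC, 5 adjoining windows (36, 22, 25, 31 and 17 read pairs) and 1 farther window (17) carry stars, and in ECTO only the HAR123 window (19 read pairs) does.

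At the other end of the scale, the lowest partners were taken among those with at least 3 read pairs expected in every library. Only 16 partners of HIC1 and 24 of MIR132/MIR212 met this minimum, which favours near windows. The 5 lowest of these for HIC1 all lay 20 to 60 kb toward lower coordinates. They cover RTN4RL1 and the gene pair DPH1 and OVCA2 (a serine hydrolase), in an unbroken run from 1993501 to 2043500, and their means ran from 0.27 to 0.39. The lowest was the window with the starts of RTN4RL1 and DPH1 (chr17:2023501-2033500), which held 10 and 5 read pairs with HIC1 in hESCs and 2 and 1 in neuroectodermal cells, against 44 and 42, and 9 and 9, with the MIR132/MIR212 window 10 kb closer to it. Scaled by the expectation, these were a mean of 0.35 in hESCs and 0.19 in neuroectodermal cells for HIC1, and 1.15 and 0.59 for MIR132/MIR212. The lowest partners of the MIR132/MIR212 window lay on both sides, 3 of them in RTN4RL1 at 60 to 80 kb and 2 in SMG6 at 20 and 30 kb, with means from 0.41 to 0.54.

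The remaining high values rest on few reads. Apart from the gap window and chr17:2253501-2263500 for MIR132/MIR212, and the HAR123 window and chr17:2243501-2253500 for HIC1, the 5 highest partners of each viewpoint lay at least 640 kb away. They held 2 to 5 read pairs over all 4 libraries, and none passed the test in both replicates. They are chr17:1263501-1273500, chr17:2683501-2693500 and chr17:1253501-1263500 for MIR132/MIR212, and chr17:2983501-2993500, chr17:2803501-2813500 and chr17:1193501-1203500 for HIC1.

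Gene starts of the region were not the high points of either profile. The start of full-length SMG6 (chr17:2303501-2313500) held 3, 6, 3 and 3 read pairs with HIC1, a mean of 2.00 in hESCs and 2.47 in neuroectodermal cells, and 7, 4, 2 and 2 with MIR132/MIR212 (1.97 and 1.30). The start of SRR, which encodes serine racemase, gave means of 1.91 and 1.49 for HIC1 and 1.67 and 1.52 for MIR132/MIR212. The shared window of TSR1 (ribosome maturation) and SGSM2 gave 2.38 and 1.47 for MIR132/MIR212 and 1.30 and 0.45 for HIC1. The shared window of SMYD4 and RPA1 held 13 read pairs with MIR132/MIR212 and 7 with HIC1 over all libraries (1.32 and 0.95 times the expectation). OVCA2 was 20 kb from HIC1 at 0.40 times the expectation over all libraries. The starts of MNT (a MAX-binding repressor), METTL16 (an RNA methyltransferase), PAFAH1B1 (needed for neuronal migration), CLUH (an RNA-binding protein of mitochondrial biogenesis) and RAP1GAP2 (a Rap1 GTPase-activating protein) held between 1 and 10 read pairs with a viewpoint over all 4 libraries. None of these windows was called. The start of SERPINF1 lay in a stretch without values and was not analysed here.

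Summed over gene blocks, the body of SMG6 (23 windows) met HIC1 at 1.43 (exact Poisson 95% interval 1.24 to 1.63) and 1.26 (1.09 to 1.45) times the expectation in hESCs, and at 1.25 (1.01 to 1.53) and 1.19 (0.97 to 1.46) in neuroectodermal cells. The same gene (24 windows) met the MIR132/MIR212 window at 0.92, 0.90, 0.97 and 0.85, but at a mean of 1.23 in hESCs and 1.14 in neuroectodermal cells when windows counted equally in place of read pairs. The block from SMYD4 to RTN4RL1 (24 windows) met HIC1 at 0.73, 0.78, 0.77 and 0.66, and MIR132/MIR212 at 0.94, 0.95, 1.07 and 1.16. DPH1 and OVCA2, a block of 1 window for HIC1, gave 0.35, 0.50, 0.42 and 0.31 there. PAFAH1B1 to CLUH and RAP1GAP2 held between 2 and 15 read pairs per viewpoint and library, and every interval held 1. Over the 27 partners per side that both viewpoints share within 290 kb, HIC1 had 0.69, 0.70, 0.66 and 0.59 times the scaled contact of MIR132/MIR212 on the lower side, with every 95% interval below 1. On the higher side it had 1.35 (exact interval 1.11 to 1.65) and 1.30 (1.06 to 1.60) in hESCs, and 1.18 (0.88 to 1.58) and 1.27 (0.94 to 1.71) in neuroectodermal cells.

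The last question was whether the contacts of the viewpoints differ between the cell types. By limma, 0 of 70 tested partners of MIR132/MIR212 and 0 of 73 of HIC1 had an adjusted p under 0.05, as did 0% of the 4525 window pairs tested. At an unadjusted p under 0.05 there were 5 partners of MIR132/MIR212 and 4 of HIC1, and 5.10% of all pairs. Differences at single partners were thus not detectable at this depth. By distance band and side, hESCs and neuroectodermal cells did not overlap in 13 of the 18 bands with at least 5 read pairs expected in each library, 8 of 9 for MIR132/MIR212 and 5 of 9 for HIC1. Over all windows they did not overlap in 48.4% of such bands. The interval of the ratio of neuroectodermal cells to hESCs, from summed read pairs, excluded 1 in 3 of the 18, against 11.9% of the bands of all windows.

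These 3 bands were as follows. On the higher side at 300 to 500 kb, HIC1 had 0.84 and 1.39 times the expectation in hESCs and 0.49 and 0.45 in neuroectodermal cells, a ratio of 0.42 (exact 95% interval 0.22 to 0.76). MIR132/MIR212 had 1.07 and 1.05 in hESCs and 0.59 and 0.65 in neuroectodermal cells there, a ratio of 0.59 (0.35 to 0.95). The hESC values in this stretch depended on the processing. With an expectation from distance alone, the hESC mean of HIC1 fell from 1.12 to 0.80, and that of MIR132/MIR212 from 1.06 to 0.95. With the windows moved by 1 to 9 kb, the hESC mean of HIC1 ran from 0.71 (5 kb) to 0.95 (1 kb). Most of this stretch is the block from SRR to METTL16, in which HIC1 had 1.25, 1.55, 0.82 and 0.63 and MIR132/MIR212 had 1.48, 1.25, 0.75 and 0.99. Of the 21 windows at 300 to 500 kb, limma tested those with a mean above the median of pairs, 11 for HIC1 and 9 for MIR132/MIR212. Their reads are also in the band ratios, so these counts are no separate support. For HIC1, 10 of the 11 were lower in neuroectodermal cells, with a median change of -0.84 on the log2(value + 1) scale. The median was -0.02 over all pairs tested, which span all distances. Of the 11, 0 had an adjusted p under 0.05 (0 also had an unadjusted p under 0.05). Of the 9 partners of MIR132/MIR212 tested there, 6 were lower in neuroectodermal cells, with a median change of -0.72, and 0 had an adjusted p under 0.05. On the lower side at 210 to 290 kb, MIR132/MIR212 had 1.01 and 0.61 in hESCs and 1.53 and 1.81 in neuroectodermal cells, a ratio of 2.01 (1.26 to 3.23). Each of these comparisons of 2 against 2 libraries had an exact permutation p of 0.333, the smallest possible, and the intervals cover counting error only.

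The profiles most like each viewpoint came from windows beside it. Over the partners that both windows measured, with the reads of the 4 libraries summed, the MIR132/MIR212 profile was most like that of the DPH1 and OVCA2 window (Spearman's rho 0.38 over 144 partners), followed by the HIC1 window (0.35) and a window in SMG6 60 kb away (0.31). The HIC1 profile was most like those of 3 windows in SMG6, at 10 kb (0.40), 20 kb (0.38) and 40 kb (0.37), and the MIR132/MIR212 window came next (0.35). The median over all windows was 0.05 for MIR132/MIR212 and 0.02 for HIC1. These values describe windows of the same libraries and near windows share neighbours, so no test was made.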

How the data were processed

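Per the labels, the authors cross-linked H9 hESCs and neuroectodermal cells, used a commercial kit for Hi-C, aligned reads to hg38 with Bowtie2 and built matrices with HOMER (versions not given in the sources used here). The deposited values are a contact signal in 2000 overlapping bins at 1-kb steps of chromosome 17, balanced within each library by the authors and not scaled between libraries. Window bounds (10 kb wide) follow the coordinates of the interaction list of the study. Dividing each value by 1 factor per bin gave back read counts, and 100% of values gave whole read pairs (tolerance 0.1). Partners were non-overlapping windows at least 20 kb away.

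Contacts were tested against the same-distance expectation (exact Poisson test), and cell types by limma 3.58.1 (R 4.3.3; a mean-variance trend in eBayes after lmFit), using log2(value + 1) for pairs above the median, after scaling totals, which understates changes of low pairs. Other tests used scipy 1.17.1. Scripts were tested on simulated data. For limma these held far more reads than the libraries, so that test does not show what limma detects at this depth. Named partners were the HAR123 window, called windows, the 5 highest and 5 lowest, fixed gene starts and the 3 most alike windows. The members, lists and distance bands were chosen with earlier results of these data known. Alternatives covered left-out replicates, windows moved by 1 to 9 kb, other expectations, call rules, distance ranges, units, filters, pseudocount and scaling. Replicate numbers did not pair the libraries, and intervals (95%) cover counting error only. Sequences are from RefSeq on GRCh38 and gene bounds from GENCODE 44.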

Additional observations from a re-analysis of the deposited data

Results flagged for a closer look

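At 20 to 100 kb the MIR132/MIR212 window had side balances of opposite sign in the cell types, and it is listed here for that reason. How many other windows do so was not computed, so the change is not shown to be particular to this window. For contact by side and distance band, a different measure, the cell types did not overlap in 48.4% of bands over all windows. The log2 of contact on the lower over the higher side was 0.42 and 0.44 in hESC replicates 1 and 2, and -0.15 and -0.14 in neuroectodermal replicates 1 and 2, so that neuroectodermal cells stood 0.57 lower (difference -0.57), with both libraries of a group on the same side of 0. In read pairs, the lower and higher sides held 97 and 65, and 94 and 63, in hESCs (59.9% on the lower side in both), and 40 and 45 (47.1%), and 36 and 39 (48.0%), in neuroectodermal cells. The exact 95% binomial intervals of the lower share lay above an even split in hESCs (51.9% to 67.5% and 51.8% to 67.6%) and held it in neuroectodermal cells (36.1% to 58.2% and 36.3% to 59.8%). The difference was not tested beyond the exact permutation of 2 against 2 libraries, which gave its smallest possible p of 0.333. At the HIC1 window every library lay below 0 at this distance (-0.66, -0.67, -0.95 and -1.36).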

How the results depend on the processing

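The balance toward higher coordinates at HIC1 and the difference between the viewpoints kept their direction under every alternative tried, while the lean of the MIR132/MIR212 window did not. Distance ranges of 210 to 290 kb were added after the data were seen. Of the gene blocks, HIC1 with PAFAH1B1 to CLUH was 0.59 without hESC replicate 2 (mean 1.16) and 0.48 without neuroectodermal replicate 2 (mean 0.84), and HIC1 with RAP1GAP2 was 0.43 without hESC replicate 1 (mean 0.72).

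Called partners depended on the rule and on single libraries. For MIR132/MIR212 in hESCs (1 partner) there were 3 with a pass in at least 1 replicate, 5 on summed read pairs, 0 with the stricter p and z rule, 2 without hESC replicate 1 and 2 without hESC replicate 2, and 0 (2 kb) to 2 (8 kb) with the windows moved. For HIC1 in hESCs (0 partners) there were 4, 7, 1 without hESC replicate 1, 3 without hESC replicate 2, and up to 2 with the windows moved by 9 kb. In neuroectodermal cells summed read pairs gave 1 partner for each viewpoint, and HIC1 had 1 with a pass in at least 1 replicate and 0 to 1 with a replicate left out (1 without neuroectodermal replicate 2).

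The side balance of MIR132/MIR212 in hESCs (0.34) was -0.022 with an expectation from distance alone, -1.35 at 210 to 290 kb, and -0.72 (9 kb) to 0.15 (1 kb) with the windows moved. In neuroectodermal cells (0.23) it was -0.14 at 20 to 100 kb, 0.62 at 110 to 200 kb, 0.017 at 210 to 290 kb, and -0.92 (9 kb) to -0.075 (1 kb) with the windows moved. Moving the windows carries this viewpoint toward HIC1. At HIC1 in hESCs (-0.91) it was -1.22 from distance alone, -0.67 at 20 to 100 kb, -1.13 at 110 to 200 kb, -1.83 at 210 to 290 kb, -1.07 in read pairs, and -1.47 (4 kb) to -1.05 (1 kb) with the windows moved. In neuroectodermal cells (-1.13) it was -0.51 at 210 to 290 kb and -1.53 with the windows moved by 8 kb. The difference between viewpoints (-1.30) was -1.05, -1.55 and -0.50 in the 3 distance ranges and at its smallest -0.62 with the windows moved by 9 kb.

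For the SMG6 body, HIC1 in hESCs (1.34) had 1.08 from distance alone, 1.74 as a mean over windows and 1.53 at its highest with the windows moved; in neuroectodermal cells (1.22) these were 1.06, 1.60, and 1.13 to 1.42. MIR132/MIR212 in hESCs (0.91) had 0.888, 1.23, and 0.997 to 1.26; in neuroectodermal cells (0.91) 0.994, 1.14 and up to 1.12. For SMYD4 to RTN4RL1, HIC1 in hESCs (0.75) had 0.536 from distance alone and 0.589 to 0.687 with the windows moved; in neuroectodermal cells (0.72) 0.588 from distance alone, 0.809 as a mean over windows and 0.559 at its lowest with the windows moved. MIR132/MIR212 had 0.825, 1.03, and 0.748 to 0.979 in hESCs (0.95), and 1.29 as a mean over windows and 0.713 at its lowest with the windows moved in neuroectodermal cells (1.11). The cause of these changes was not tested.

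Between cell types, the fit with the replicate number as a block called 2 window pairs of all those tested, 0 of them with a viewpoint, against 0 without it. Leaving out a replicate called 0 pairs, with the lone library assumed to vary like the other group. Replicate numbers did not pair the libraries (correlation of their deviations -0.0066 over 4525 pairs). Depth limits what single partners can show, as window pairs at least 20 kb apart hold 1.42 to 2.93 read pairs on average.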
